A study of Mus musculus with 6 samples.

Results

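Oxidative phosphorylation genes were chosen by symbol: protein-coding genes whose names begin with Nduf, Uqcr, Cox4 to Cox8 or Atp5, the genes Sdha to Sdhd, and the 13 protein genes of the mitochondrial genome. This gave 112 genes, 99 nuclear and 13 mitochondrial, of 51497 genes with a matched transcript and 29374 genes with any estimated read. The nuclear genes comprised 77 subunits of complexes I to V, 8 complex I assembly factors named Ndufaf, 8 tissue isoforms of complex IV subunits, the copies Ndufb11b and Ndufb4c, the related genes Cox7a2l, Dmac2l and Atp5if1, and Atp5o. The last is here a second locus beside the subunit gene Atp5po, and it had 0 reads in every library. Ndufb4c is a processed pseudogene in the GENCODE vM21 annotation and protein-coding in RefSeq, and a gene counted as protein-coding if either annotation gave it so. To ask what Rpl22, a ribosomal protein, does in leukemia, the study sequenced poly(A) RNA of CD11b+Gr1+ splenocytes, a myeloid fraction sorted from tumor-bearing mice. All animals carried the Mll-AF9 knockin, an oncogenic gene fusion of acute myeloid leukemia, on a C57BL/6 background, and they were either Rpl22+/+ or, by germline deletion, Rpl22-/-. Each genotype had 3 libraries, and the labels give no age. In the study's text 1 mouse identifier stands beside each genotype, and no label states that libraries of a genotype are from separate animals, so p-values measure the spread between these libraries, which may be technical.

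The respiratory chain passes electrons from NADH at complex I, or from succinate at complex II, through ubiquinone to complex III, then through cytochrome c to complex IV, where oxygen is reduced. Complexes I, III and IV pump protons out of the mitochondrial matrix, and complex V, the ATP synthase, uses the returning protons to make ATP. Complex II is built from nuclear genes alone, whereas complexes I, III, IV and V combine nuclear subunits with a small set made inside the mitochondrion. In bulk RNA a lower level can reflect fewer cells of a type or less RNA per cell, and these cannot be told apart.

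The libraries held between 35828500 and 102866127 estimated reads, with the lowest depth in Rpl22-/- replicate 1. Rpl22 itself was lower in Rpl22-/-, at 148, 235 and 152 CPM (reads scaled to a common library size after TMM normalization) in Rpl22+/+ against 58.3, 89.9 and 73.5 in Rpl22-/- (log2 fold change -1.27 ± 0.25 SE, edgeR adjusted p = 0.0106). Of the markers of the sort, Itgam (CD11b) was at 1928 ± 137 CPM (SD, n = 3) in Rpl22+/+ and 948 ± 117 in Rpl22-/-, and Ly6g, an antigen of the Gr1 antibody, at 159 ± 16.2 and 14.2 ± 2.64. The promyelocyte enzyme gene Mpo went the other way, at 1333 ± 453 and 10594 ± 989 CPM. Of all 9 markers listed for the sorted myeloid cells 1 was called higher and 2 lower (summed CPM 5917 to 6195 against 13894 to 16265). Summed CPM of 9 erythroid markers ranged from 90.4 to 115 in Rpl22+/+ and from 649 to 1218 in Rpl22-/-, with 8 of 9 called higher, and Klf1 was at 0 in 2 Rpl22-/- libraries. All 10 T cell markers were called lower (summed CPM 68.4 to 85.4 against 26.8 to 32.2). Of 8 B cell markers 2 were called lower (803 to 1037 against 542 to 761), and of 5 NK cell markers 3 were called higher (5.62 to 6.02 against 13.2 to 20.8). Platelet markers summed to under 4 CPM in every library, and of 5 stromal or endothelial markers tested 1 was called higher and 1 lower. With 1 library left out the erythroid and T cell lists had 7 to 8 and 8 to 10 calls. Without Rpl22-/- replicate 2 the erythroid calls were 7 higher and 1 lower. The B cell list ranged from 0 to 3 calls and had 1 with the replicate number as a block. The myeloid list had 3 higher and 3 lower without Rpl22+/+ replicate 2, 2 and 2 with the block, and 1 and 2 with any other library left out. The part of these cell markers in the results below was not tested.

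In the reported test few oxidative phosphorylation genes passed the threshold for a difference between the genotypes. How many passed depended on single libraries and on the scaling, as given below. A gene was called when its Benjamini-Hochberg adjusted p in the edgeR quasi-likelihood test, taken over all 16656 genes tested, was under 0.05. Of the 106 members tested 9 were called higher and 1 lower in Rpl22-/-, which is 9.43% against 27.6% of all genes tested. The higher genes were the complex I subunits Ndufa5, Ndufb2 and Ndufab1, the assembly factors Ndufaf3, Ndufaf4 and Ndufaf6, the complex IV subunit Cox7a2, the complex IV isoform Cox6b2 and the ATP synthase inhibitor Atp5if1, and the lower gene was Ndufb11b. Ndufb11b passed the count filter only through the Rpl22+/+ libraries, so it could differ in 1 direction only. It is described below without a test, but the counts of members called in this test include it. In the single directions 13.7% of all genes tested were called higher and 13.8% lower. None of the 12 mitochondrial genes tested was called. With an absolute log2 fold change over 1 as well, 4 members were called higher and 1 lower, where 17.5% of all genes tested were called (8.93% higher and 8.54% lower). The 3 libraries of each genotype did not overlap for 21.7% of members and for 46.1% of all genes tested (23.9% with Rpl22-/- the higher).

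With all 6 libraries in the fit, most nuclear members had small positive differences, which depended on single libraries as given below. Of 94 nuclear members tested, 65 had a positive log2 fold change, beside 9021 of all 16656 genes tested. The 77 nuclear subunits had a median of 0.16 against 0.07 over all genes tested. The median was 0.16 in complex I, -0.01 in complex II, 0.17 in complex III, 0.15 in complex IV and 0.16 in complex V, and 0.03 over the 12 mitochondrial genes. These medians moved with the processing. Without Rpl22+/+ replicate 2 they were 0.35, 0.23, 0.37, 0.34 and 0.31 in complexes I to V, and without Rpl22-/- replicate 2 they were 0.05, -0.12, 0.02, 0.03 and -0.01. Without Rpl22+/+ replicate 1 or 3 they lay between 0.03 and 0.07 in complexes I, III, IV and V, and at -0.15 and -0.12 in complex II. The complex II median was also -0.16 with the length offset, and the complex V median was 0.01 with the GC correction and -0.01 when reads of pseudogene copies were added to their genes. The median of the mitochondrial genes turned to -0.50 with the GC correction, where 12 of 12 were negative, to -0.31 with the replicate block and the GC correction (11 of 12), and to -0.05 without Rpl22+/+ replicate 2 (8 of 12), with 0 genes called in each. Complex I had 3 of 37 nuclear subunits called, complex IV 1 of 11, and complexes II, III and V 0 of 4, 0 of 8 and 0 of 17, all below the background share in the reported test. At an unadjusted p under 0.05, 0 of the 12 mitochondrial genes passed as well.

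**Figure D1:**
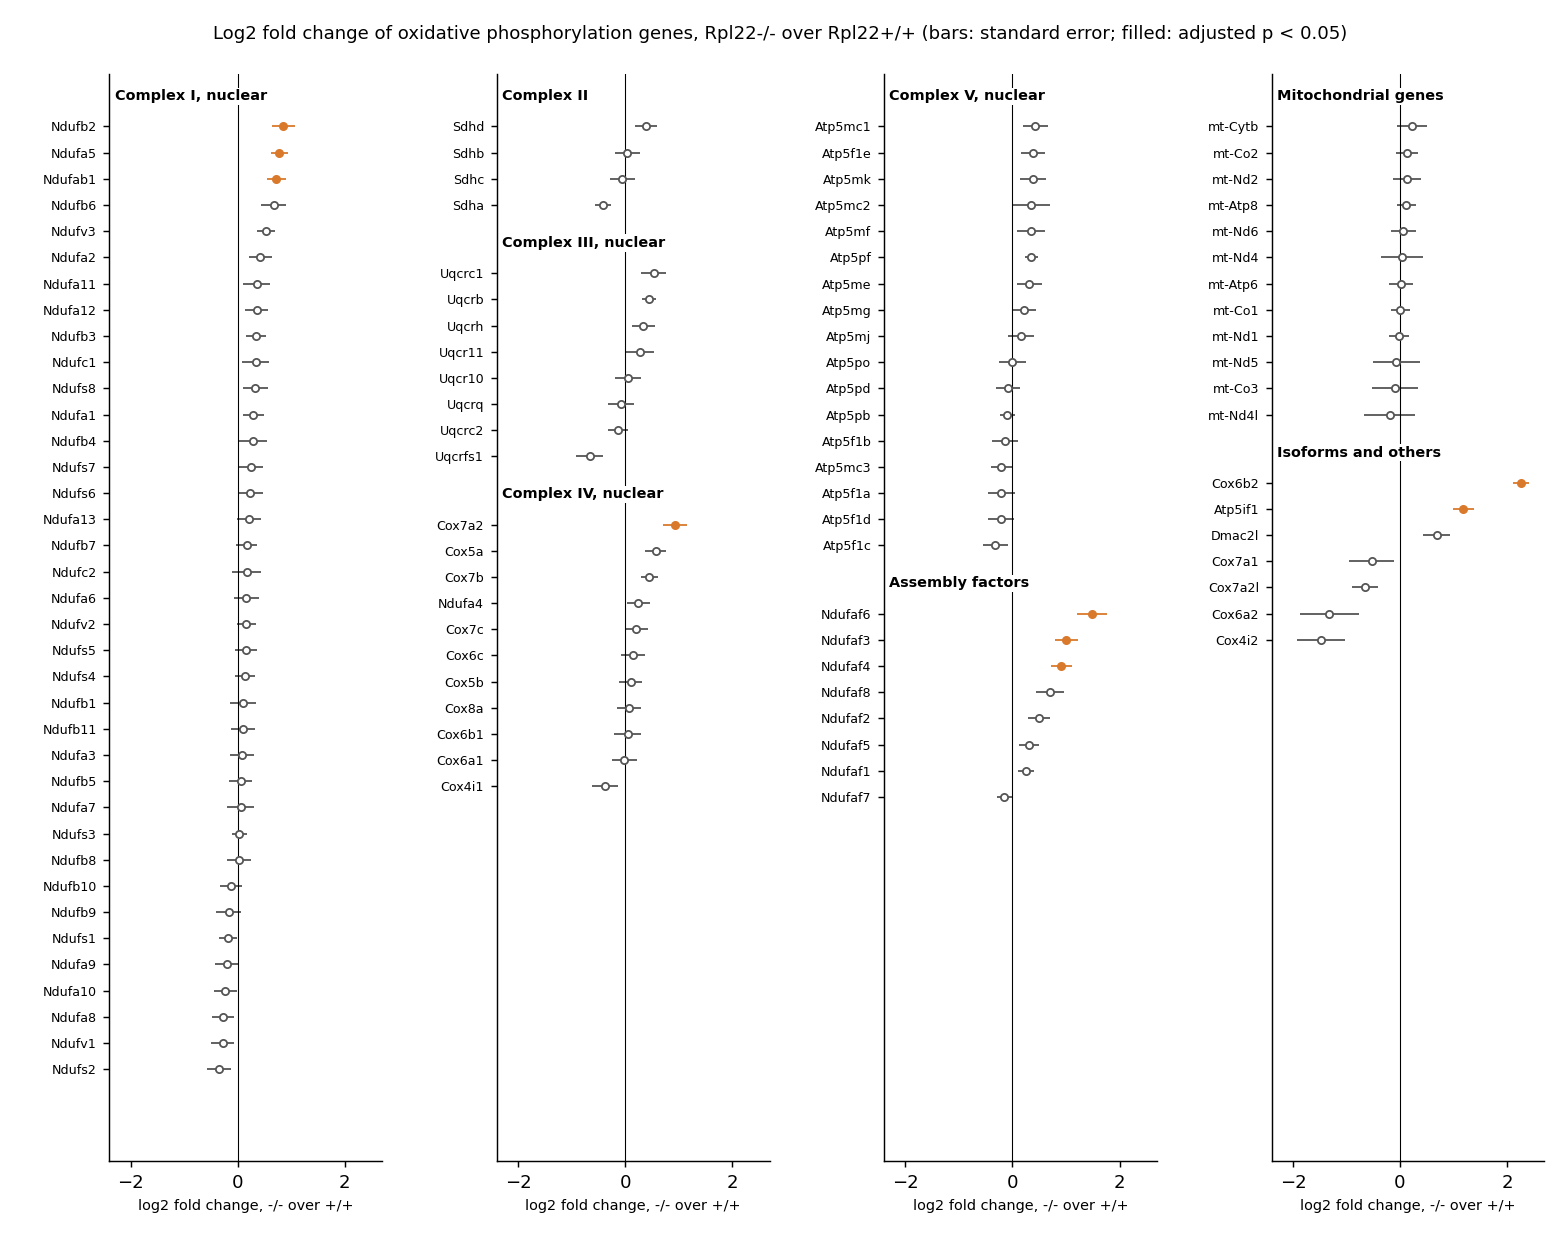
Log2 fold change of each tested gene in Rpl22-/- over Rpl22+/+ libraries (x axis, n = 3 each), with its standard error as a bar, grouped by complex and role. Filled orange points are the genes called at an adjusted p under 0.05, which are Ndufb2, Ndufa5 and Ndufab1 in complex I, Cox7a2 in complex IV, 3 assembly factors, Cox6b2 and Atp5if1, and the open grey points of most other genes lie close to 0. The copies Ndufb11b and Ndufb4c are not drawn.

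The nuclear subunits varied together among libraries. The number of them called moved with the library left out, as did the share of all genes called. It was 4 in the reported test, or 5.19% against 27.6% of all genes tested. Without Rpl22+/+ replicate 2 it was 27 (35.1% against 40.0%), and without Rpl22-/- replicate 2 it was 4 (5.19% against 20.5%). Without any other library it was between 0 and 2 (0 to 2.6% against 15.1 to 17.9%). Rpl22+/+ replicate 2 held the highest level of the 3 Rpl22+/+ libraries for 76 of the 77 nuclear subunits, and its level was 1.59 times the mean of replicates 1 and 3 at the median subunit. Over all genes tested, the same library was highest of its group for 54.7% of genes, and over 741 other genes with transcripts under 900 bases and a mean over 5 CPM it was highest for 87.0%. The nuclear subunits are mostly short, with a median transcript length of 679 bases against 2199 over all genes tested. Similarly, Rpl22-/- replicate 2 was highest in its group for 75 of 77, against 36.4% of all genes tested and 78.9% of the other short genes. For 57 of the 77, or 74.0%, Rpl22+/+ replicates 1 and 3 both lay below all 3 Rpl22-/- libraries. The same held for 37.2% of all genes tested and 67.3% of the other short genes, and Rpl22+/+ replicate 2 was set aside here after its values were seen.

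With Rpl22+/+ replicate 2 left out, 32 members were called higher and 2 lower, or 32.1% of members against 40.0% of all genes tested (20.7% higher and 19.3% lower). The median of the 77 nuclear subunits was then 0.34 against 0.04 over all genes, with 66 of 77 positive beside 8960 of 17127 genes. In that fit 13 subunits of complex I, 1 of complex II, 3 of complex III, 3 of complex IV and 6 of complex V were called higher. Without Rpl22+/+ replicate 3, in contrast, 3 members were called higher and 1 lower, and without Rpl22+/+ replicate 1 the counts were 5 and 1, against backgrounds of 15.1% and 17.9%. The small positive median of the nuclear subunits was also not held by every leave-out. It was 0.04 without Rpl22+/+ replicate 1, 0.05 without Rpl22+/+ replicate 3 and 0.03 without Rpl22-/- replicate 2. Over all genes the median was 0.08, 0.06 and 0.07 in these fits. Of the 77 subunits 42, 43 and 39 were positive, beside 9434 of 17320, 9406 of 17381 and 9175 of 17052 genes tested. With the replicate number as a block, a pairing that is uncertain for number 3, 17 members were called higher and 3 lower, which is 18.9% against 33.8% of all genes tested. Counted over both directions, the share of members called lay below the background under each of these settings, while the number called changed by over 1.5 times. In the higher direction alone, 8.49% of members were called against 13.7% of all genes in the reported test, and 16.0% against 17.7% with the block. Without Rpl22+/+ replicate 2 the order was the other way, at 30.2% of members and 33.8% of nuclear subunits against 20.7% of all genes. Members called higher also exceeded that background on both log2 TPM scales (28.3% against 19.3% with a pseudocount of 1, and 29.2% against 19.7% with 0.1), with no composition factor (25.5% against 21.3%), with no filter on low counts (10.3% against 7.57%) and with the block and a GC correction together (32.1% against 23.3%).

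**Figure D2:**
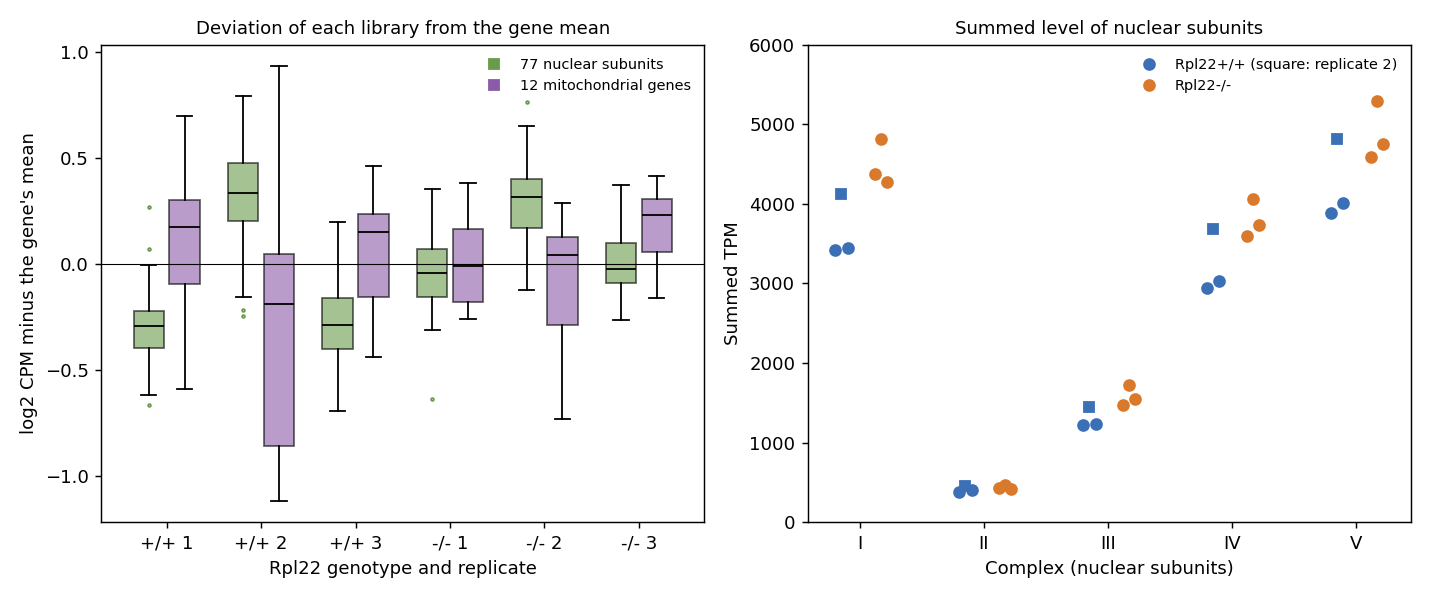
Left, boxes (median, quartiles and range, with outlying genes as dots) of log2 CPM minus the mean of each gene over the 6 libraries, for 77 nuclear subunits (green) and 12 mitochondrial genes (purple), by Rpl22 genotype and replicate. Right, summed TPM of the nuclear subunits of each complex, with 1 point per library. Rpl22+/+ replicate 2 (square at right) is the highest Rpl22+/+ library for nuclear subunits and has the lowest median for mitochondrial genes.

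Levels between genes were compared as TPM, a transcript abundance that is scaled for length and for the total of each library. The nuclear subunits of complex I summed to 3421, 4123 and 3442 TPM in Rpl22+/+ and to 4372, 4810 and 4280 in Rpl22-/-, and the groups did not overlap. Complex III subunits summed to 1225, 1453 and 1239 against 1478, 1718 and 1549, and these groups did not overlap either. Complex IV gave 2940, 3685 and 3031 against 3592, 4066 and 3733, and complex V gave 3885, 4819 and 4006 against 4584, 5296 and 4750. In both, Rpl22+/+ replicate 2 lay above the lowest Rpl22-/- library. Complex II was the most even, at 386, 460 and 400 against 430, 462 and 420. The ratio of the Rpl22-/- to the Rpl22+/+ mean was 1.23 for complex I, 1.05 for complex II, 1.21 for complex III, 1.18 for complex IV and 1.15 for complex V. TPM carries no correction for composition, and on the log2(TPM + 0.1) scale the median difference over all genes was 0.19.

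Complex I, the NADH dehydrogenase, has 7 nuclear core subunits that hold its flavin and iron-sulfur centers and 30 accessory subunits. None of the core subunits was called, and their median log2 fold change was 0.03. Of the 30 accessory subunits 3 were called, all higher, and the median of the 30 was 0.17. Both shares lay below those of all genes tested, at 27.6% called in either direction and 13.7% called higher. The difference between core and accessory subunits was not tested. Ndufa5, an accessory subunit of the matrix arm (chromosome 6, 24518665 to 24528012, GRCm39), was at 13.1, 14.1 and 11.2 CPM in Rpl22+/+ and 21.4, 24.6 and 20.1 in Rpl22-/-. The groups did not overlap, and Ndufa5 rose by 0.78 ± 0.16 (log2, SE, adjusted p = 0.0117), a call that was lost without Rpl22+/+ replicate 3 (adjusted p = 0.0616). Ndufb2, an accessory subunit of the membrane arm (chromosome 6, 39569508 to 39580316), was at 16.3, 24.4 and 15.9 CPM against 31.8, 39.4 and 30.9. All 3 Rpl22-/- libraries were above the highest Rpl22+/+ library, and the log2 fold change was 0.85 ± 0.21 (adjusted p = 0.0260). Leaving out Rpl22+/+ replicate 1 or 3 or Rpl22-/- replicate 1 or 3 ended the Ndufb2 call, with adjusted p = 0.0922, 0.104, 0.0662 and 0.0634. Its exons share 146 bases with Braf on the opposite strand, and although the library kit marks strand, the sources do not state whether quantification used it.

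Ndufab1, the mitochondrial acyl carrier protein that is also a complex I subunit, is named here after its values were seen, as the third subunit called. Its level was 18.5, 26.4 and 17.8 CPM in Rpl22+/+ and 33.6, 36.3 and 33.5 in Rpl22-/-, without overlap (log2 fold change 0.73 ± 0.18, adjusted p = 0.0273). The call was lost without Rpl22+/+ replicate 1 or 3 (adjusted p = 0.10 and 0.111), without Rpl22-/- replicate 1 or 3 (0.0774 and 0.0818) and with an offset for transcript length (0.0688). Ndufa3, the nuclear complex I subunit with the highest mean level, at 216 TPM, did not differ beyond the spread between libraries (42.9, 69.3 and 43.9 CPM against 51.0, 63.8 and 50.9, log2 fold change 0.09 ± 0.22, adjusted p = 0.821). With the replicate block, Ndufv3 and Ndufb6 were called as well, at log2 fold changes of 0.55 and 0.70 (adjusted p = 0.0284 and 0.0122, against 0.0644 and 0.0736 without the block). Both are accessory subunits named after their values were seen.

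Ndufb11b, a copy of the accessory subunit gene Ndufb11 (chromosome 15, 81864741 to 81865764), is present in few reads. It had 0.199, 0.203 and 0.174 CPM in Rpl22+/+, or 42.1 estimated reads in all, and 0 reads in each Rpl22-/- library. Against a floor of 3 counts over the Rpl22-/- group it was at least 14.2-fold lower. No test is given, since only its Rpl22+/+ libraries reached the minimum of 0.124 CPM that the count filter set. Per length, its Rpl22+/+ mean was 0.272 TPM against 134 TPM for Ndufb11, which itself was at 83.4 ± 22.2 CPM in Rpl22+/+ and 89.5 ± 13.2 in Rpl22-/- (log2 fold change 0.10 ± 0.22, adjusted p = 0.780).

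Complex I assembly factors, which help build the enzyme and are not part of it, had 3 of 8 called higher. That is 37.5% against 13.7% of all genes tested that were called higher, with a median log2 fold change of 0.60. All 3 lie on chromosome 4 or 9, where 31.9% and 24.7% of genes tested were called higher. Without Rpl22+/+ replicate 3 the count fell to 1, and it was between 2 and 4 with any other library left out. Ndufaf6 (chromosome 4, 11051045 to 11076205) was at 2.36, 4.08 and 2.14 CPM in Rpl22+/+ and 7.67, 8.42 and 7.84 in Rpl22-/-. It rose 2.79-fold (log2 fold change 1.48 ± 0.28, adjusted p = 0.00934), with an adjusted p of at most 0.0383 in all 21 alternatives. Ndufaf3 (chromosome 9, 108442736 to 108444633), the assembly factor with the highest mean level, at 46.5 TPM, was at 18.0, 26.0 and 16.5 CPM against 37.1, 46.2 and 38.2. It rose 2.01-fold (log2 fold change 1.01 ± 0.21, adjusted p = 0.0135), and the call was lost without Rpl22+/+ replicate 1 or 3 (adjusted p = 0.0544 and 0.0578). Its exons share 48 bases with Impdh2 on the opposite strand.

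Ndufaf4 (chromosome 4, 24898083 to 24905001) had the opposite pattern among the Rpl22+/+ libraries, with its lowest value in replicate 2. It was at 10.2, 6.67 and 8.95 CPM against 17.3, 15.3 and 16.0 (log2 fold change 0.92 ± 0.19, adjusted p = 0.0135). The call was lost without Rpl22+/+ replicate 3 or Rpl22-/- replicate 1 or 2 (adjusted p = 0.0531, 0.0508 and 0.0652). For the 5 other assembly factors the log2 fold changes lay between -0.16 and 0.70. Of them Ndufaf8, named after its values were seen, was called with the replicate block (0.72, adjusted p = 0.0169).

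Chromosomes 4 and 9 held 5 of the 9 members called higher: Ndufaf4, Ndufaf6 and Atp5if1 on chromosome 4, and Ndufaf3 and Cox7a2 on chromosome 9. All 13 members on these chromosomes had a positive log2 fold change, with a median of 0.57, as had 1384 of the 1909 genes tested there. Genes on chromosomes 4 and 9 were called higher more often in general, at 28.3% against 11.9% of genes on the other chromosomes, with medians of 0.43 and 0.03. Among the other 93 members tested, 4 were called higher and 1 lower, or 5.38% against 26.4% of genes on the other chromosomes called in either direction. The 1 lower was Ndufb11b, which passed the count filter only through the Rpl22+/+ libraries. The part of chromosomal position in these calls was not tested.

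Complex II, succinate dehydrogenase, links the citric acid cycle to the respiratory chain, and none of its 4 subunits was called. Sdha, the flavoprotein that oxidizes succinate (chromosome 13, 74470373 to 74498399), was at 160, 206 and 163 CPM in Rpl22+/+ and 130, 140 and 127 in Rpl22-/-. All 3 Rpl22-/- libraries lay below the Rpl22+/+ libraries (log2 fold change -0.41 ± 0.15, adjusted p = 0.0841), and the difference passed in 5 of 21 alternatives. Sdhb, the iron-sulfur subunit, was at 66.2, 108 and 66.6 CPM against 72.9, 97.3 and 77.3 (log2 fold change 0.04 ± 0.24, adjusted p = 0.930). Of the membrane anchors, Sdhc was at 69.6 ± 22.2 and 67.0 ± 7.30 CPM (SD, n = 3, -0.05 ± 0.23, adjusted p = 0.896), and Sdhd at 104 ± 25.9 and 136 ± 18.8 CPM (0.39 ± 0.21, adjusted p = 0.223). Without Rpl22+/+ replicate 2, Sdhd was called higher at 0.57 (adjusted p = 0.0294).

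The estimated split of Sdhc among its transcripts differed between genotypes although its total did not pass the test. The transcript Sdhc-201 (815 bases) took 53.4, 54.4 and 50.7% of Sdhc TPM in Rpl22+/+ and 68.4, 65.9 and 65.7% in Rpl22-/-. The shorter Sdhc-203 (298 bases) took 36.5, 36.1 and 40.0% against 17.6, 19.6 and 21.2%. Sdhc was among 3 genes, of 102 with a mean of at least 5 TPM, in which the share of a transcript was separated between the genotypes by at least 5 percentage points. That is 2.94% of members, against 641 of 9512, or 6.74%, of all genes tested at this level. Atp5f1b, the catalytic beta subunit of ATP synthase, was another, with 97.1, 98.3 and 97.3% of its TPM in the full-length coding transcript Atp5b-201 in Rpl22+/+ and 80.5, 85.5 and 88.1% in Rpl22-/-. Ndufaf2 was the other, through a transcript of 250 bases that was listed at 0 in all Rpl22+/+ libraries and took 18.5, 5.92 and 6.39% in Rpl22-/-. These shares are Salmon estimates, were chosen by their separation and were not tested.

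Complex III, the cytochrome bc1 complex, had no subunit called among 8. Uqcrh, the hinge subunit and the nuclear complex III gene with the highest mean level, at 315 TPM, was at 71.2, 106 and 74.0 CPM against 91.2, 125 and 103 (log2 fold change 0.34 ± 0.21, adjusted p = 0.274). Its groups overlapped through Rpl22+/+ replicate 2. In the fit with the replicate block 3 subunits were called, or 37.5% of 8 against 33.8% of all genes tested, a share near the background. They are named here after their values were seen. Uqcrb (0.44, adjusted p = 0.0375) and the core protein gene Uqcrc1 (0.58, adjusted p = 0.0399) rose in that fit. Uqcrfs1, the Rieske iron-sulfur protein, fell in it by 0.64 on the log2 scale (adjusted p = 0.0201, against 0.102 without the block), from 70.6, 123 and 79.6 CPM to 45.6, 67.2 and 60.1.

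Complex IV, cytochrome c oxidase, has nuclear subunits that occur as tissue isoforms, and the largest rise of any member was in an isoform gene. Cox6b2 is known as the testis form of subunit 6B, and Cox6b1 is the form found in most tissues. The promoter windows of both genes are printed as an aid to comparison, from 250 bases before to 50 bases after the RefSeq start (GRCm38.p6, both on the minus strand). Capitals mark matches to the motifs given further on, of which Cox6b1 held 1 and Cox6b2 none. Cox6b1 lies at chr7:30626065-30626364 and Cox6b2 at chr7:4753045-4753344.
Cox6b1: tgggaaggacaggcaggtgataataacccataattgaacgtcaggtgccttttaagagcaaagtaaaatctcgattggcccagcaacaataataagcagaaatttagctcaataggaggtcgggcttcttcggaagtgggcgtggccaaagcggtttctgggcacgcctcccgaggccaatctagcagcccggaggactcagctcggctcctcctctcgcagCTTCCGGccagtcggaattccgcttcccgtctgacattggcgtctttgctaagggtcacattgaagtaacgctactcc
Cox6b2: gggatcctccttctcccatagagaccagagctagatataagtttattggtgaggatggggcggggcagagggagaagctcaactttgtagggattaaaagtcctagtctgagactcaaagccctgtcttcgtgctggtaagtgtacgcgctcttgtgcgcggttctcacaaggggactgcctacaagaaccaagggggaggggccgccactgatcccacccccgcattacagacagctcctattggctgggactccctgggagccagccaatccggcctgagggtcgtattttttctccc

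Cox6b2 was at 6.29, 7.40 and 6.29 CPM in Rpl22+/+ and 34.6, 30.6 and 30.8 in Rpl22-/-. The groups were far apart relative to their spread, and Cox6b2 rose 4.80-fold (log2 fold change 2.26 ± 0.15, adjusted p = 0.000160), with an adjusted p of at most 0.00221 in all 21 alternatives. Cox6b1 was at 104 ± 36.0 and 107 ± 13.1 CPM (SD, n = 3; log2 fold change 0.05 ± 0.25, adjusted p = 0.911) and is named here for this comparison. Per length, the Cox6b2 mean was 25.3 TPM in Rpl22+/+ and 130 TPM in Rpl22-/-, against 356 and 397 TPM for Cox6b1. The other isoforms were rare. Cox4i2, known from lung, was at 0.157, 0.297 and 0.214 CPM against 0.0535, 0.0799 and 0.0944. The muscle forms Cox6a2 and Cox7a1 were at 0.263 ± 0.112 and 0.449 ± 0.204 CPM in Rpl22+/+ and 0.102 ± 0.0505 and 0.311 ± 0.0159 in Rpl22-/-. Cox7a1 did not pass the test (adjusted p = 0.412). No test is given for Cox4i2 and Cox6a2, which reached the count filter's minimum in 3 Rpl22+/+ libraries but in only 0 and 1 Rpl22-/- libraries. Ndufa4l2 had 6 estimated reads over all libraries, and Cox7b2, Cox8b and Cox8c had 0.

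Cox7a2, the subunit 7A form found in most tissues (chromosome 9, 79662643 to 79667160), was the only one of 11 standard nuclear subunits of complex IV to be called. It was at 50.3, 75.3 and 49.99 CPM in Rpl22+/+ and 97.1, 135 and 103 in Rpl22-/-, with no overlap (log2 fold change 0.94 ± 0.22, adjusted p = 0.0217). The call was lost without Rpl22+/+ replicate 1 or 3 or Rpl22-/- replicate 3 (adjusted p = 0.0782, 0.0906 and 0.0587). Its relative Cox7a2l, a factor that joins complexes III and IV into supercomplexes (chromosome 17, 83809347 to 83824759), differed in the other direction. It was at 129, 215 and 135 CPM against 84.2, 117 and 104, with each Rpl22-/- library below each Rpl22+/+ library (log2 fold change -0.65 ± 0.24, adjusted p = 0.0906). With the replicate block Cox7a2l was called lower at -0.63 (adjusted p = 0.0237). A processed pseudogene that shares 78.2% of its 31-base words with Cox7a2l, Gm6969 on chromosome 12, had 889.1, 1606.9 and 1051 reads in Rpl22+/+ and 0 in every Rpl22-/- library. It lay just under the limit of 80% for adding copies, and its part in the Cox7a2l values was not tested. Cox8a, the nuclear complex IV gene with the highest mean level, at 488 TPM, was at 145 ± 42.3 and 152 ± 20.6 CPM (0.07 ± 0.23, adjusted p = 0.860). The block also added Cox5a at 0.60 and Cox7b (adjusted p = 0.0217 and 0.0336), both named after their values were seen.

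**Figure D3:**
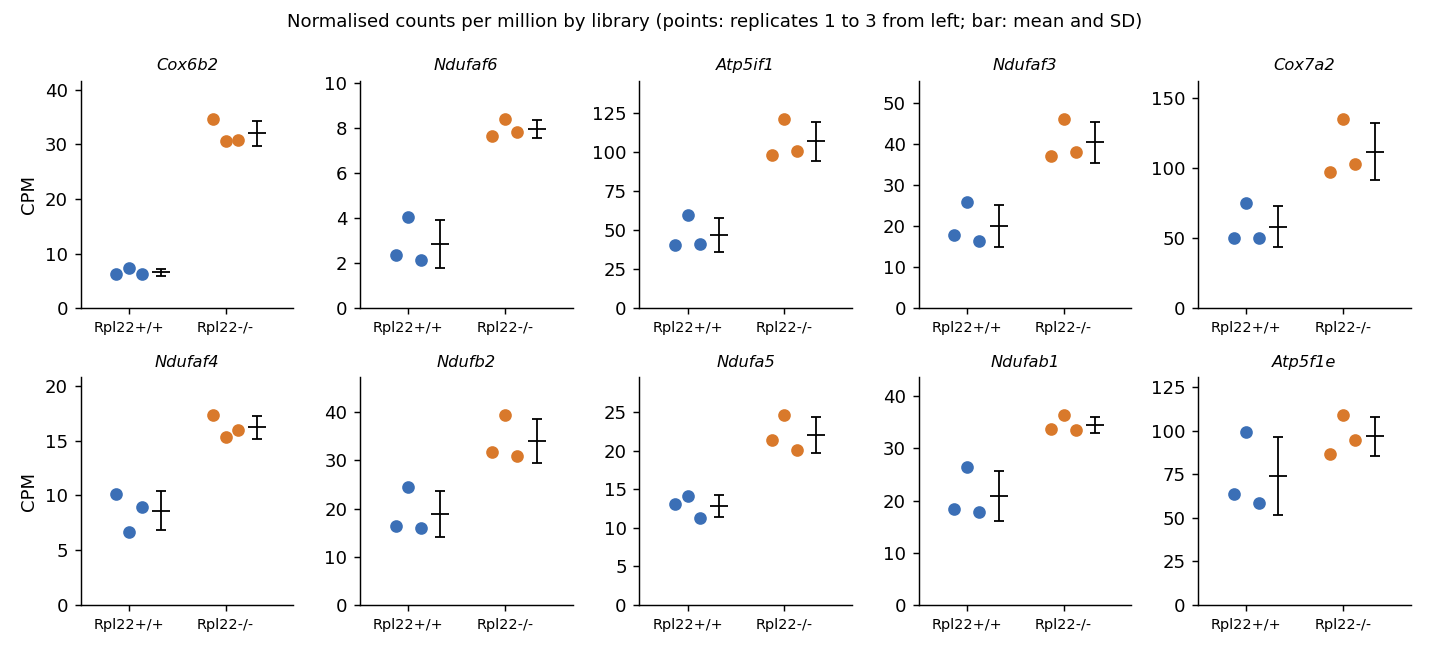
CPM of the 9 members called higher and of Atp5f1e in each library (points, blue for Rpl22+/+ and orange for Rpl22-/-, replicates 1 to 3 from left), with the mean and SD of each group (n = 3) as a black bar. In the 9 called genes every orange point lies above every blue point, whereas for Atp5f1e Rpl22+/+ replicate 2, at 99.5 CPM, lies above 2 of the orange points.

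Complex V makes ATP through its F1 head, and Atp5if1 is the small protein that inhibits it when it runs in reverse. Atp5f1e is the epsilon subunit of the head and a gene that the study's text names. Their promoter windows (GRCm38.p6, minus strand) are printed because the inhibitor was the most changed complex V gene and the epsilon subunit stands for the structural genes. Atp5if1 lies at chr4:132535365-132535664 and Atp5f1e at chr2:174464052-174464351, and capitals mark motif matches.
Atp5if1: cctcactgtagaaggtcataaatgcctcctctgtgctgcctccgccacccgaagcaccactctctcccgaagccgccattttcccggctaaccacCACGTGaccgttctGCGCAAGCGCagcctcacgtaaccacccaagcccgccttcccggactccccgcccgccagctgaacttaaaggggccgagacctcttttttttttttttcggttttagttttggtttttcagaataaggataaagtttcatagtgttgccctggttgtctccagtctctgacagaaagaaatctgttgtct
Atp5f1e: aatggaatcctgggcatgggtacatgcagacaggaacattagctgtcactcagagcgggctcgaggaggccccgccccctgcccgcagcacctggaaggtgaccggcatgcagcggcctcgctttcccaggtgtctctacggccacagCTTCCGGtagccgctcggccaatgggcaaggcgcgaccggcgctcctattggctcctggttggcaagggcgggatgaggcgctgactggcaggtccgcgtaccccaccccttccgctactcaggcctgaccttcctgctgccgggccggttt

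Atp5if1 was at 40.6, 59.7 and 41.1 CPM in Rpl22+/+ and 98.3, 121 and 101 in Rpl22-/-. No library overlapped, and Atp5if1 rose 2.26-fold (log2 fold change 1.18 ± 0.20, adjusted p = 0.00586), with an adjusted p of at most 0.0333 in all 21 alternatives. Atp5f1e was at 63.5, 99.5 and 58.7 CPM against 86.8, 109 and 94.4 (0.39 ± 0.23, adjusted p = 0.263). Here the groups overlapped through Rpl22+/+ replicate 2, and without that library Atp5f1e was called higher at 0.62 (adjusted p = 0.0167). Dmac2l, earlier named Atp5s and given here after its values were seen, was at 3.70 ± 0.785 and 5.96 ± 1.32 CPM (0.69 ± 0.25, adjusted p = 0.0889) and was called higher with the replicate block (0.69, adjusted p = 0.0442). None of the 17 subunits of the enzyme was called, with log2 fold changes between -0.32 and 0.43. Atp5mg, a membrane subunit with the highest mean level of all nuclear members, at 612 TPM, was at 172 ± 41.6 and 201 ± 30.9 CPM (0.22 ± 0.21, adjusted p = 0.498).

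Short sequence motifs known for regulators of these genes were counted in the promoter windows of the members, on both strands and allowing overlap. RefSeq windows were matched by symbol for 79 of the 99 nuclear members (84 windows). The NRF1 motif, 2 GCGC words with any 2 bases between, was found in 23 windows (27.4%) against 6.23% of all 32851 windows of the same length. The GABPA motif CCGGAAG was found in 18 (21.4%) against 8.86%, and the YY1 motif AAGATGGC in 11 (13.1%) against 2.75%. The MYC motif CACGTG was found in 8 (9.52%) against 7.15% of all windows. Any of the NRF1, GABPA and YY1 motifs was present in 53.6% of member windows and 16.0% of all windows. Among the 69 windows of nuclear subunits alone, YY1 matches lay in 7 of 35 complex I windows and 3 of 17 complex V windows. They lay in none of the 3, 5 and 9 subunit windows of complexes II, III and IV. The counts describe the letters of the windows and were not set against the test of genotype.

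The mitochondrial genes encode core membrane subunits and are transcribed as long precursors from the circular genome. Several have copies in the nuclear genome on chromosome 1 whose annotated transcripts are nearly identical, and Salmon has to divide reads between them. For mt-Nd3, a subunit of complex I, the annotated sequences of the gene (mt-Nd3, 348 bases) and of its copy (Gm28438, 345 bases) were identical at 344 of 345 aligned positions, with the substitution T3C counted from the first base of mt-Nd3. The first 60 bases of both are shown with this position in capitals.
mt-Nd3: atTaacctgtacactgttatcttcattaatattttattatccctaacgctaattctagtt
Gm28438: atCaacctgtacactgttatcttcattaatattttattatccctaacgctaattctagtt

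All reads of this pair were assigned to the copy: mt-Nd3 had 0 reads in each library, and Gm28438 had 94473.5 in all. The annotated copies of mt-Co2 (681 bases), mt-Co3 (783 bases), mt-Atp6 (678 bases, to the transcript of Gm10925) and mt-Nd4l (294 bases) had no difference over the aligned length. Of the reads of gene and copy together, the copy took 94.4 to 96.2% for mt-Co2 (Gm28661), 84.9 to 91.4% for mt-Co3 (Gm28437), 70.3 to 82.7% for mt-Atp6 (Atp6-ps) and 62.3 to 74.4% for mt-Nd4l (Gm10222). For these 5 genes the level assigned to the mitochondrial gene alone is therefore uncertain. With the reads of the copies added, mt-Nd3 was at 171, 288 and 154 CPM in Rpl22+/+ and 152, 241 and 187 in Rpl22-/- (log2 fold change -0.08 ± 0.29, adjusted p = 0.877), and none of the 13 genes was called.

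**Figure D4:**
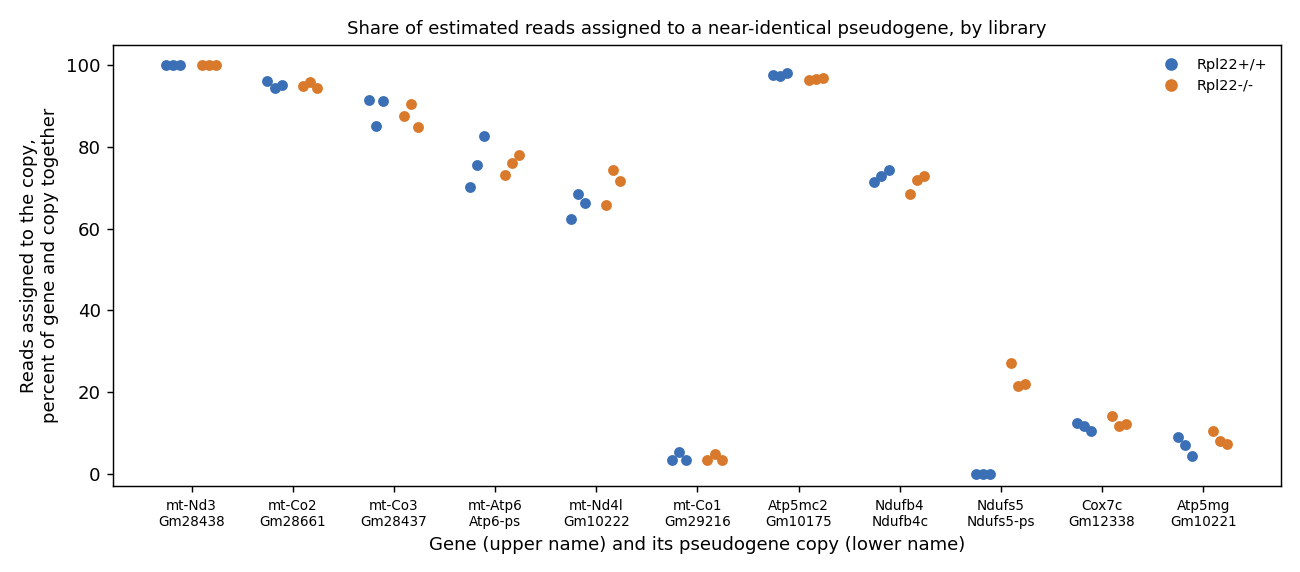
Percent of the estimated reads of a gene and its pseudogene copy that were assigned to the copy (y axis), with 1 point per library (blue Rpl22+/+, orange Rpl22-/-), for 6 mitochondrial genes and 5 nuclear subunit genes. The copy took all reads for mt-Nd3 and over 90% for mt-Co2 and Atp5mc2, and Ndufs5-ps took reads in the orange libraries, at 21.4 to 27.1%, and almost none in the blue.

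The mitochondrial protein genes took 1.86, 1.30 and 1.84% of gene reads in Rpl22+/+ and 1.72, 1.86 and 1.97% in Rpl22-/-. The groups overlapped, and the means differed by 0.182 percentage points, less than the pooled SD of 0.243. The difference was -0.00251 without Rpl22+/+ replicate 2, and it was 0.280, 0.269 and 0.247 without Rpl22+/+ replicate 1, Rpl22+/+ replicate 3 and Rpl22-/- replicate 1. Without Rpl22-/- replicate 3, the library with the highest share, the difference was smaller than with all libraries. With the copies added the shares were 2.696, 2.15 and 2.77% against 2.50, 2.88 and 2.92%. The nuclear subunits took 0.561, 0.739 and 0.568% against 0.659, 0.799 and 0.683%. In Rpl22+/+ replicate 2, then, the mitochondrial share was the lowest of all libraries and the nuclear share the second highest.

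The low level in Rpl22+/+ replicate 2 was not shared by all mitochondrial genes. In complex I, mt-Nd4 was at 1924, 726 and 1896 CPM in Rpl22+/+ and 1654, 1172 and 1852 in Rpl22-/- (log2 fold change 0.04 ± 0.39, adjusted p = 0.956). mt-Nd5 was at 1453, 445 and 1278 against 1133, 732 and 1165 (-0.07 ± 0.44, adjusted p = 0.933), and mt-Nd4l at 92.5, 28.2 and 78.6 against 74.3, 34.4 and 65.6 (-0.19 ± 0.47, adjusted p = 0.807). In each of these 3 genes replicate 2 was the lowest library of its genotype in both groups. The complex III gene mt-Cytb was at 2045, 1023 and 2012 against 1914, 1844 and 2203 CPM (0.23 ± 0.28, adjusted p = 0.610).

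In complex IV the order of the libraries was another. mt-Co1, the catalytic subunit of complex IV and the member with the most reads, was at 8737, 9155 and 9297 CPM against 7885, 10168 and 9281 (0.01 ± 0.18, adjusted p = 0.982). mt-Co3 had its highest level in Rpl22+/+ replicate 2, at 246, 706 and 274 against 309, 377 and 463 CPM (-0.09 ± 0.42, adjusted p = 0.902). The level of mt-Co2 was 130 ± 17.6 and 142 ± 34.6 CPM (0.13 ± 0.21, adjusted p = 0.708). In complex V, mt-Atp6 was at 809 ± 187 and 824 ± 137 CPM (0.03 ± 0.23, adjusted p = 0.952) and mt-Atp8 at 438 ± 55.1 and 474 ± 73.8 (0.12 ± 0.18, adjusted p = 0.684). The remaining complex I genes were mt-Nd1, at 1405 ± 248 and 1389 ± 146 CPM (-0.02 ± 0.19, adjusted p = 0.964), mt-Nd2, at 683 ± 210 and 746 ± 84.3 (0.13 ± 0.26, adjusted p = 0.765), and mt-Nd6, which is encoded on the other strand, at 3.46 ± 0.727 and 3.62 ± 0.428 (0.06 ± 0.23, adjusted p = 0.870). The SE of mt-Nd4, mt-Nd5, mt-Nd4l and mt-Co3 was between 0.39 and 0.47. A difference had to be several times its SE to be called, so differences well above these values could also have gone uncalled in these genes.

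Some nuclear subunit genes also share reads with processed pseudogenes. Atp5mc2, a gene for the c-ring of ATP synthase named here after its values were seen, had 1583 reads in all and its copy Gm10175 had 53872.4, or 97.1% of the sum. Ndufb4 had 3489 reads and the listed member Ndufb4c 9105, or 72.3% of theirs. Ndufb4c was at 14.6, 24.5 and 14.9 CPM in Rpl22+/+ and 16.7, 25.2 and 18.9 in Rpl22-/- (0.17 ± 0.26, adjusted p = 0.691). Ndufs5 was at 24.1, 35.7 and 24.0 CPM against 28.4, 36.3 and 28.6 (log2 fold change 0.16 ± 0.21, adjusted p = 0.640). Its copy Ndufs5-ps on chromosome 16 had 0, 1.4 and 0 reads in Rpl22+/+ and 394.7, 993.5 and 858.2 in Rpl22-/-, and the sum of both gave a log2 fold change of 0.54 ± 0.20 (adjusted p = 0.0924). Adding the copies left 9 members called higher and 1 lower, and the median of the complex V subunits went from 0.16 to -0.01.

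Genes that act around the complexes were read from lists outside the symbol rule. Of 42 further assembly factors tested 5 were called higher and 0 lower, with a median log2 fold change of 0.30. Among them Cox20, which helps mature a complex IV subunit, rose from 12.6 ± 0.432 to 20.1 ± 1.31 CPM (0.68 ± 0.13, adjusted p = 0.00969) and Coa7, another complex IV factor, from 4.38 ± 0.983 to 7.95 ± 1.00 (0.86 ± 0.22, adjusted p = 0.0275). Of 22 electron carriers and entry points 4 were called higher and 2 lower. Sqor, which feeds electrons from sulfide oxidation into ubiquinone, fell from 140 ± 24.7 to 49.2 ± 4.97 CPM (-1.51 ± 0.17, adjusted p = 0.00133), and Gpd2, the mitochondrial glycerol-3-phosphate dehydrogenase, from 83.7 ± 6.38 to 51.7 ± 7.83 (-0.69 ± 0.16, adjusted p = 0.0177). The electron transfer flavoprotein genes rose, Etfb from 75.1 ± 24.1 to 176 ± 12.4 CPM (1.22 ± 0.23, adjusted p = 0.00976) and Etfa from 47.8 ± 0.745 to 72.9 ± 5.98 (0.61 ± 0.12, adjusted p = 0.0113).

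Of 28 genes of mitochondrial DNA expression 2 were called higher and 0 lower, with a median of 0.32. These were Fastkd5, an RNA processing factor (7.80 ± 0.613 to 12.3 ± 0.567 CPM, 0.66 ± 0.14, adjusted p = 0.0151), and Ssbp1, the mitochondrial single-stranded DNA binding protein (22.6, 18.3 and 22.2 CPM to 32.2, 29.6 and 28.7, 0.52 ± 0.14, adjusted p = 0.0342). Of 14 nuclear regulators tested 3 were called higher and 0 lower, led by Myc (36.1 ± 7.59 to 125 ± 6.89 CPM, 1.79 ± 0.18, adjusted p = 0.000804) and the deacetylase gene Sirt3 (14.7 ± 1.49 to 30.7 ± 1.64, 1.06 ± 0.14, adjusted p = 0.00221). Of 17 citric acid cycle genes 1 was called higher and 2 lower. Idh3a, a subunit of isocitrate dehydrogenase, rose from 44.0 ± 2.00 to 72.6 ± 2.97 CPM (0.72 ± 0.12, adjusted p = 0.00501), while Pdha1 of pyruvate dehydrogenase fell from 120 ± 16.4 to 76.9 ± 8.17 (-0.65 ± 0.16, adjusted p = 0.0229) and fumarase, Fh1, from 68.8 ± 13.9 to 44.3 ± 5.74 (-0.63 ± 0.19, adjusted p = 0.0444). The share called was 11.9% of the assembly factors, 27.3% of the carriers, 7.14% of the mitochondrial DNA expression genes, 21.4% of the regulators and 17.6% of the citric acid cycle genes, against the background of 27.6%.

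The calls of these lists also moved with single libraries. Without Rpl22+/+ replicate 2, 16 assembly factors, 10 carriers, 11 mitochondrial DNA expression genes, 7 regulators and 8 citric acid cycle genes were called, against a background of 40.0%. Without Rpl22+/+ replicate 3 the counts were 0, 2, 0, 2 and 1, and without Rpl22+/+ replicate 1 they were 1, 3, 0, 2 and 2. Leaving out 1 Rpl22-/- library gave 1 to 2, 3 to 5, 0 to 1, 2 to 3 and 1 to 3. With the replicate block they were 8, 5, 4, 3 and 5, against 33.8%. Of the genes named from these lists, Sqor, Etfb, Myc, Sirt3 and Idh3a passed with any 1 library left out. Cox20 was lost without Rpl22+/+ replicate 3 (adjusted p = 0.0609), Etfa without Rpl22+/+ replicate 1 or 3 (0.0528 and 0.0636) and Gpd2 without replicate 3 of either genotype (0.0608 and 0.0635). Coa7, Fastkd5, Ssbp1, Pdha1 and Fh1 were lost in 4, 3, 5, 3 and 4 of the 6 leave-outs, with adjusted p up to 0.110, 0.0757, 0.133, 0.0900 and 0.153. The block added the assembly factors Uqcc2, Cox16 and Pet100 (adjusted p = 0.00959, 0.0329 and 0.0249), the mitochondrial DNA expression genes Top1mt and Trmt10c (0.0285 and 0.0151) and the dehydrogenase subunits Dlat and Dlst (0.0433 and 0.0489), and it ended the call of Pdss2, an enzyme of ubiquinone synthesis (0.0588, against 0.0482). These 8 genes are named after their values were seen.

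The share of oxidative phosphorylation genes called was set against that of all genes under each processing alternative. Other scaling of the counts gave 11.3% of members against 29.2% of all genes with DESeq2 size factors and 13.2% against 29.1% with upper-quartile factors. A filter at a mean count of 50 or more gave 12.7% against 33.7%, and the DESeq2 test gave 9.43% against 25.0%. With no filter on low counts the shares were 11.2% and 14.9%. They also lay closer than in the reported test with no composition factor, at 27.4% against 34.6%, and with the replicate block and a GC correction together, at 41.5% against 45.4%. Counting higher calls alone, the share of members exceeded that of all genes in 6 of these 22 settings, which are given above with their values. On the log2(TPM + 1) scale the shares in either direction were 32.1% and 32.2%, and on the log2(TPM + 0.1) scale 31 members were higher and 4 lower against a background of 32.6%.

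**Figure D5:**
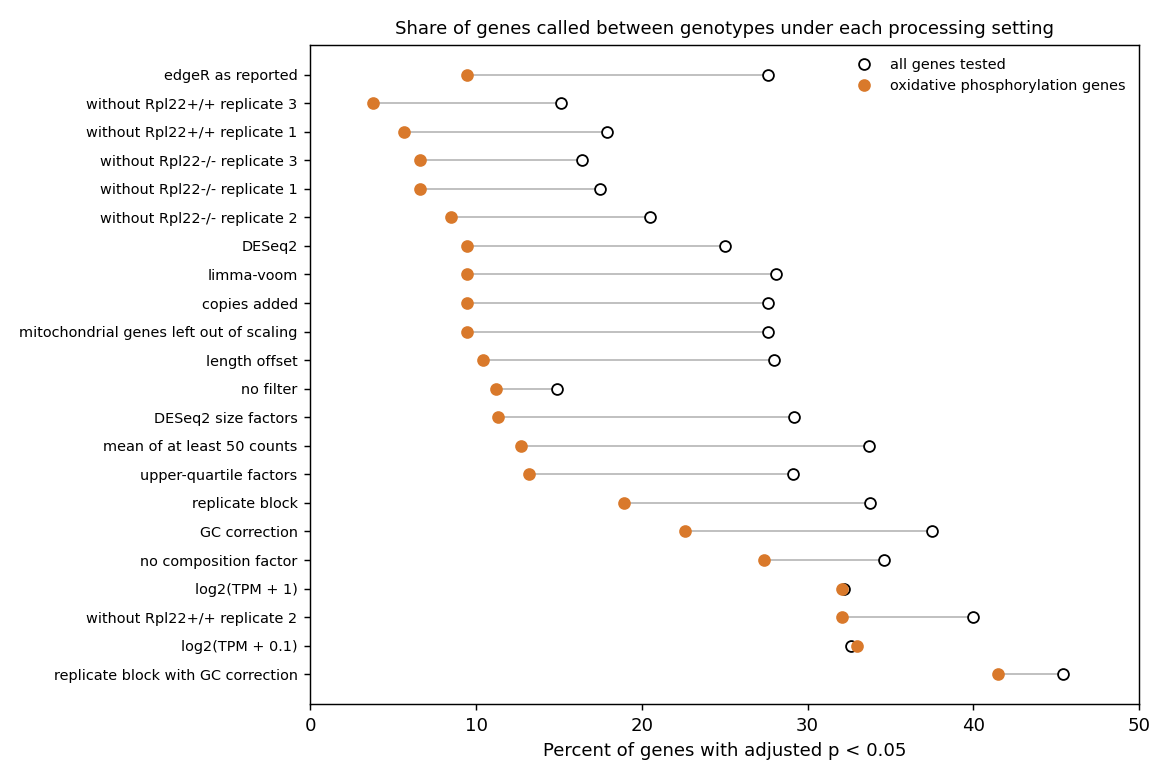
Percent of genes with an adjusted p under 0.05 in either direction (x axis) among all genes tested (open circles) and among the oxidative phosphorylation genes tested (orange), under the reported test at the top and each of 21 alternatives below it. The orange point lies to the left of the open circle in 21 of 22 settings, with log2(TPM + 0.1), where the background is 32.6%, as the exception.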

How the data were processed

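RNA of 6 libraries was compared, 3 for each genotype, grouped by their titles. Per the study's methods, poly(A) libraries were made with a stranded kit, reads were trimmed with Trimmomatic and transcripts were quantified with Salmon (versions and transcript set not given in the sources used here, with GRCm39 named in the processing notes). The authors deposited estimated counts and TPM per transcript, with an effective length. A further deposited table holds the authors' DESeq2 comparison. Its positions were used. The base mean in this table is a signal the authors made by dividing counts by DESeq2 size factors, and the gene sums behind 106 members were 0.955 to 0.995 times it. Its fold changes and p-values were not used.

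Estimated counts were summed to genes with GENCODE vM21 transcript identifiers, which matched 49.2% of transcripts and 98.0% to 98.1% of reads, and rounded. Genes passing filterByExpr were tested with the quasi-likelihood test of edgeR 4.0.16 (R 4.3.3, TMM factors, genotype as the only term). The SE is implied by the F statistic. The script was tested on simulated data. Limma 3.58.1 and DESeq2 1.42.0 served as alternatives, and plots used matplotlib 3.10.9. A pseudogene counted as a copy with at least 80% of its 31-base words in the member. The addition of copies was chosen after seeing the data.

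Libraries of the same replicate number deviated together, with correlations of 0.570, 0.715 and 0.129 for numbers 1, 2 and 3. These exceed 0.1 and were taken over the 13202 genes whose mean count reached 50. Over all genes tested the third was 0.0974, and Rpl22+/+ replicate 3 correlated more with Rpl22-/- replicate 1 (0.430) than with its own number, so the pairing is uncertain. Blocked values are given where they change the call of a member or of a gene in the pathway lists. The numbers come from the titles, and what they stand for is not given.

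Members and lists were chosen with earlier results of these data known. Named with values were Atp5f1e, the complex II and mitochondrial genes, Atp5if1, Cox7a2l, the isoforms with any read, members called with an absolute log2 fold change over 1, for each complex and the assembly factors the 2 smallest p-values per direction among called genes and the gene with the highest TPM, and per further list the 2 smallest p-values per direction among called genes.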

Additional observations from a re-analysis of the deposited data

How the results depend on the processing

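The number of members called depended on the library left out and on the scaling, whereas the absence of calls among mitochondrial genes did not change in any of the 21 alternatives. Against 9 members called higher, leaving out each library gave 3 to 32, and 27 were higher with no composition factor, 30 with log2(TPM + 1), 31 with log2(TPM + 0.1), 18 with the GC correction, 17 with the replicate block, 34 with the block and the GC correction together, and 4 with members on chromosomes 4 and 9 left out. The 1 member called lower was Ndufb11b, which passed the count filter only through the Rpl22+/+ libraries. Against this 1, the count was 3 with DESeq2 size factors, 2 with no composition factor and 4 on either TPM scale. It was 2 with the length offset, 6 with the GC correction, 3 with the replicate block and 10 with block and GC correction. With each library left out it was 1 to 2. Over all genes 4594 were called, 7569 with the block and the GC correction, and 2622 to 6851 with each library left out. The share of calls that were higher was 49.8%, but 61.5% with no composition factor and 60.1% and 60.4% on the TPM scales, where the median of all genes was shifted by 0.13, 0.04 and 0.12 (log2). The median of mitochondrial genes moved from 0.03 to -0.50 with the GC correction and to -0.31 with the block as well, with 0 called in either. The cause of these changes was not tested. The median of nuclear subunits, 0.16, ranged from 0.03 to 0.34. Each move was smaller than the pooled library SD of 0.29, a spread that includes Rpl22+/+ replicate 2. Of 731 values of 35 named genes under alternatives, 18 lost a call, 32 gained one and 0 were called in opposite directions, while 76 uncalled values changed sign. The difference in mitochondrial share, 0.182 percentage points, ranged from -0.00251 without Rpl22+/+ replicate 2 to 0.280 without Rpl22+/+ replicate 1. With 3 libraries a group, low levels such as those of Cox4i2 and Cox6a2 limit what could be detected.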
